A study of Homo sapiens with 6 samples.

Results

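The nucleic acid sensing genes of HCT116 cells, an established colorectal cancer line, were followed as a set of 10 members out of 19871 gene symbols in the tables. The members were chosen by name and by role. DDX58, IFIH1, DHX58 and TLR3 were the RNA sensors, MB21D1, TMEM173 and IFI16 the DNA sensors, and MAVS, TBK1 and IRF3 the adaptor, kinase and factor below them. The tables gave 9 members under these symbols, and MB21D1 was found under its newer symbol CGAS.

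Strand-specific RNA sequencing was done in 3 groups of 2 libraries each, all of HCT116 cells: a negative control (NC), cells transfected with a GAS5 plasmid (GAS5, a long non-coding RNA), and cells given siRNA against YAP, the transcriptional co-activator of the Hippo pathway (siYAP). The study asked how GAS5 relates to YAP signaling, and the sensing genes were read here in the same data. What the NC cells received is not given in the sources used here, so an effect of GAS5 RNA and an effect of the transfected plasmid itself cannot be told apart. The labels do not say whether the libraries of a group came from separate cultures.

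The tables give 1 value per group, a mean that the authors took over its libraries, and so hold no spread between replicates. No difference below has a replicate check, and no p-value is given. The intervals are 95% exact (Clopper-Pearson) intervals on the reads of both libraries and cover counting error only. Depth was similar, with total mean counts of 27206123 (NC), 25521577 (GAS5) and 26298036 (siYAP). Scaled counts below are the mean counts summed over the transcripts of a gene and set to the NC depth by TMM factors. YAP1, the target of the siRNA, had scaled counts of 3480 (NC), 2899 (GAS5) and 1547 (siYAP), a log2 ratio to NC of -1.17 in siYAP. GAS5 itself has no row in these mRNA tables, so its level was not checked. Epithelial markers were abundant (KRT8 65346 and EPCAM 5958 scaled counts in NC), whereas VIL1 and CEACAM5 were at 0 in NC. Of the 9 markers of other cells, the leukocyte marker PTPRC was at 0 in all 3 groups. Their summed scaled counts were 597 in NC, 1001 in GAS5 and 1010 in siYAP, mostly from COL1A1 (379, 602 and 578) and ACTA2 (210, 348 and 425). CD14, a co-receptor of Toll-like receptors and a myeloid marker, had 4.50 in NC, 40.6 in GAS5 and 3.21 in siYAP. Any part of these markers in the results was not tested.

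As background, cells detect foreign or misplaced nucleic acid by a few receptors. RIG-I (gene DDX58) and MDA5 (IFIH1) are helicases that bind double-stranded RNA in the cytosol and signal through MAVS on mitochondria, LGP2 (DHX58) is a related helicase that tunes them, and TLR3 binds double-stranded RNA in endosomes and signals through TICAM1 instead. For DNA, cGAS (MB21D1) makes the messenger cGAMP, which activates STING (TMEM173), and IFI16 is a mostly nuclear DNA-binding protein. Both arms converge on the kinase TBK1, which phosphorylates IRF3, and IRF3 then turns on interferon genes. Several sensors are themselves interferon-stimulated genes.

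Of the 8 members with enough counts, those past a fold of 2 in GAS5 against NC were all RNA sensors. At that fold, with the prior count included, DDX58 (4.19-fold), IFIH1 (4.24-fold) and TLR3 (2.34-fold) were higher in GAS5, and DHX58 was 1.86-fold higher. TMEM173 and MAVS were lower by less than that fold, and TBK1 and IRF3 lay close to NC. In siYAP no member reached a fold of 2 in either direction. MB21D1 and IFI16 were barely detected in any group and were not called either way.

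In numbers, 3 of the 8 members with enough counts were higher in GAS5 than in NC and 0 were lower. Enough counts meant a mean scaled count of at least 10 over the 3 groups, which left 13258 genes. Among all of these, 1.83% were at least 2-fold higher in GAS5 and 0.8% at least 2-fold lower. In siYAP against NC, 0 of the 8 members were past that fold, beside 1.03% of all genes higher and 1.06% lower. Between the treatments, 4 of the 8 were higher in GAS5 than in siYAP and 0 lower, beside 2.2% of all genes higher and 1.9% lower. The comparisons with NC share the NC values, and the direct comparison uses the same GAS5 and siYAP values. The median log2 ratio over the 8 members was 0.50 for GAS5 against NC and 0.0068 for siYAP against NC, where the median over all genes was -0.0043 and 0.0131. Since these are bulk samples, more cells with the transcript and more transcript per cell cannot be told apart.

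**Figure D1:**
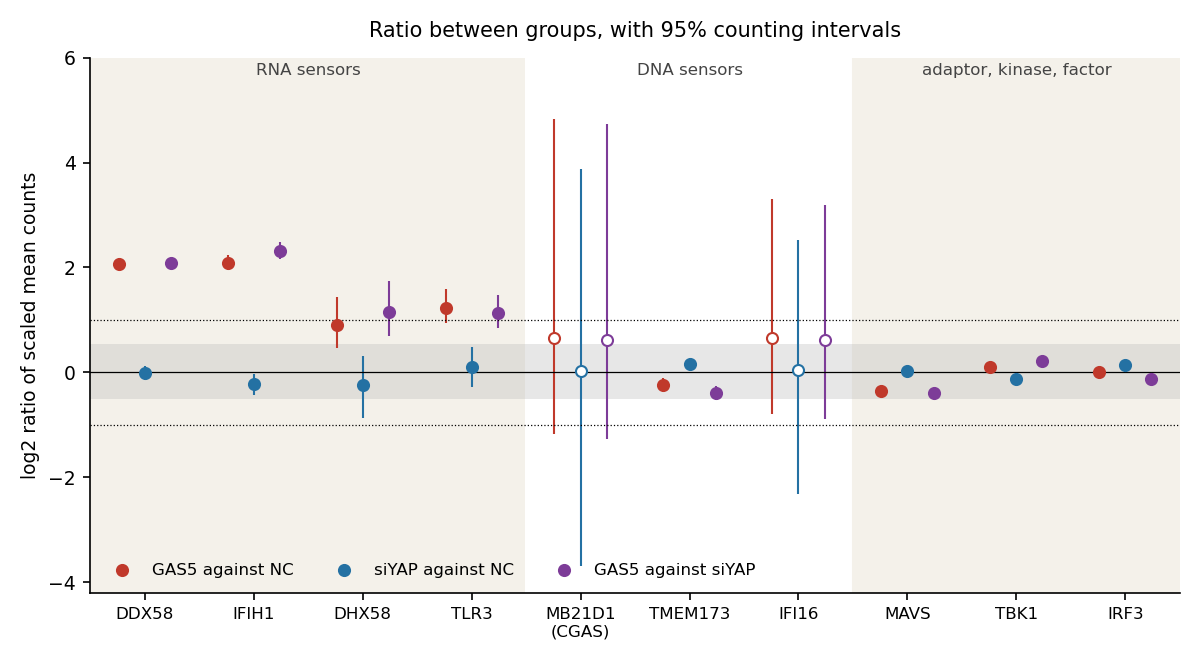
Log2 ratio of scaled mean counts (y axis) for the 10 members (x axis) in GAS5 against NC (red), siYAP against NC (blue) and GAS5 against siYAP (purple), with 95% counting intervals as lines, a fold of 2 as dotted lines and the range from percentile 5 to percentile 95 of all genes in GAS5 against NC as the grey band. The red and purple points of DDX58 and IFIH1 lie above 2 with their blue points near 0, while MB21D1 and IFI16 (open points, too few counts to be called, prior count included) have intervals that span several log2 units.

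DDX58 encodes RIG-I, the receptor for short double-stranded RNA with a 5′ triphosphate. Its scaled counts were 513 in NC, 2155 in GAS5 and 509 in siYAP. GAS5 stood apart, and NC and siYAP were within counting error of each other. The log2 ratio to NC was 2.07 in GAS5 (interval 1.97 to 2.17) and -0.01 in siYAP (-0.14 to 0.12), and 99.5% of all genes had a lower GAS5 ratio. The gene lies on the minus strand at chr9:32455705-32526324 (GRCh38, GENCODE 29), with no other gene overlapping it on that strand. Of its 2 listed transcripts, ENST00000379883, which has 18 exons and a coding length of 2775 bases, held 91.8% of the NC counts, 99.1% of those in GAS5 and 98% of those in siYAP. It went from a scaled count of 471 in NC to 2137 in GAS5, so the gene's value rests on this annotated transcript.

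IFIH1 encodes MDA5, the receptor for long double-stranded RNA. Scaled counts were 236 in NC, 1006 in GAS5 and 201 in siYAP. Again only the GAS5 group was high among the 3. The log2 ratio to NC was 2.08 in GAS5 (1.95 to 2.24) and -0.23 in siYAP (-0.43 to -0.03). The gene lies on the minus strand at chr2:162267079-162318703. Its counts were split between the annotated transcript ENST00000263642 (16 exons, coding length 3075 bases) and a transcript that the authors assembled from the reads, TCONS_00086145. The annotated transcript had scaled counts of 81.9 in NC, 633 in GAS5 and 100 in siYAP, while the assembled transcript had 136 in NC, 302 in GAS5 and 93.8 in siYAP. Thus the annotated form held 34.7% of the gene in NC and 62.9% in GAS5, and its log2 ratio to NC was 2.92 in GAS5, against 1.14 for the assembled form. The direction in GAS5 was the same for both, whereas in siYAP the annotated form was at 0.29 and the assembled form at -0.53. Counts of transcripts that share exons are estimates, and this split was not checked against reads.

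DHX58 encodes LGP2, which lacks the signaling domains of RIG-I and MDA5. Scaled counts were low, at 29 in NC, 55.7 in GAS5 and 24.1 in siYAP. GAS5 was again the highest group, and NC and siYAP overlapped within counting error. The log2 ratio to NC was 0.90 in GAS5 (0.46 to 1.43), just under a fold of 2, and -0.25 in siYAP (-0.86 to 0.32). Against siYAP the GAS5 value was 1.14 higher (0.69 to 1.75), past that fold. The gene lies on the minus strand at chr17:42101404-42112733. By transcript the counts were assigned differently between groups: ENST00000251642 (14 exons, coding length 2034 bases) was listed at 0 in NC, 53.3 in GAS5 and 7.14 in siYAP. No fold is given for it, because the NC reads of the gene were all assigned to another transcript. The assembled transcript TCONS_00062416 held all of the NC counts (29), none in GAS5 and 17.0 in siYAP. As for IFIH1, how the counting divided reads between these forms was not checked against reads, and DHX58 was called by its gene sum.

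TLR3 encodes the endosomal receptor for double-stranded RNA, and its inclusion among cytosolic sensors is by pathway rather than by place. Scaled counts were 60.0 in NC, 143 in GAS5 and 64.3 in siYAP. Relative to NC the log2 ratio was 1.23 in GAS5 (0.94 to 1.58) and 0.10 in siYAP (-0.28 to 0.48). The lower end of the GAS5 interval is below a fold of 2, so counting error alone would allow a value on either side of that threshold. TLR3 lies on the plus strand at chr4:186069152-186088069. Of its 4 listed transcripts, 3 held the counts. The canonical ENST00000296795 (5 exons, coding length 2712 bases) had scaled counts of 23.2 in NC, 45.5 in GAS5 and 18.5 in siYAP. ENST00000504367 had 26.9, 73.5 and 40.1 in the same order, and ENST00000513189 had 9.91, 24.4 and 5.69. Each of the 3 was highest in GAS5.

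**Figure D2:**
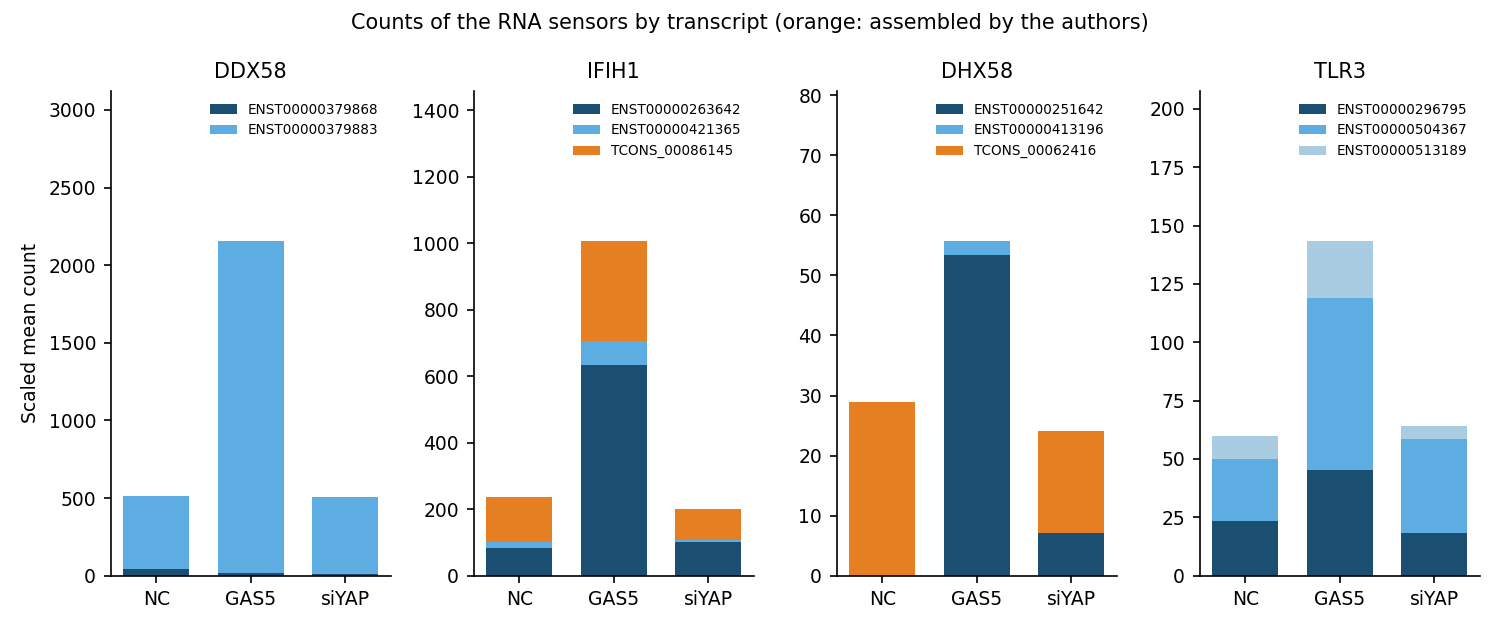
Scaled mean counts (y axis, linear from 0, a scale of its own in each panel) of the 4 RNA sensors in NC, GAS5 and siYAP (x axis), stacked by transcript, with transcripts assembled by the authors in orange and annotated transcripts in blues. DDX58 and TLR3 have only annotated transcripts with counts, whereas the DHX58 column is all assembled in NC (29) and all annotated in GAS5 (55.7).

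The promoters of these genes were read for the core of the interferon-stimulated response element, the site at which IRF factors bind interferon-stimulated genes. RefSeq promoters (GRCh38.p14, 250 bases before to 50 after the start) were at hand for 6 of the 10 members: DDX58, IFIH1, TLR3, IFI16, MAVS and TBK1. The letters searched on both strands were GAAA, any 2 bases and GAAA again, and 3.57% of all 35116 promoters held them. A match is a stretch of letters, not a measured site. The IFIH1 promoter held 3 matches and the TLR3 promoter 1, and these stretches are shown because these sensors were called higher in GAS5. Sequences run 5′ to 3′ on the gene's strand with the match in capitals. The IFIH1 match nearest the start begins at position -21 from it (chr2:162318665-162318745, minus strand), the other at -159 with a further match overlapping it at -153 (chr2:162318794-162318883, minus strand), both on the reverse complement. The TLR3 match begins at -4 and is also on the reverse complement (chr4:186069112-186069175, plus strand).
IFIH1, near the start: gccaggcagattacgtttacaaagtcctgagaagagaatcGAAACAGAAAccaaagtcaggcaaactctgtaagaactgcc
IFIH1, upstream: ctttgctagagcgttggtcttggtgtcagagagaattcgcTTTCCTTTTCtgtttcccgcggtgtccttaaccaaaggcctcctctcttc
TLR3: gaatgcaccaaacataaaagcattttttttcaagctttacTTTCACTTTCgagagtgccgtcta

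The DDX58 promoter had no match with that spacing. With a spacing of 1 base in place of 2, GAAANGAAA, which was searched after the sequences had been read, 3.12% of all promoters had a match, among them DDX58 at -203 (chr9:32526351-32526439, minus strand) and the second of the 2 listed IFI16 promoters at -54 (chr1:159009813-159009901, plus strand). Both searches can match the same promoter, but no stretch of letters can match both at the same start. MAVS and TBK1 had neither. The IFI16 stretch is shown beside that of DDX58 because both hold the same 9 letters, although IFI16 had only a few reads in any group.
DDX58: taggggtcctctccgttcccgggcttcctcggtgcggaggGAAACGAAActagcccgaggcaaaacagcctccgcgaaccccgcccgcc
IFI16, the second promoter: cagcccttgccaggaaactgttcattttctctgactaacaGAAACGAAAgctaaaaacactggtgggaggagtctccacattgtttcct

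On the DNA side, the level of cGAS transcript was at the limit of detection. MB21D1 (listed as CGAS, minus strand of chr6:73413515-73452276) had 2 reads in NC, 5 in GAS5 and 2 in siYAP over both libraries of a group. The ratio of GAS5 to NC was 2.70 with a counting interval of 0.443 to 28.4. At this depth neither a rise nor a fall could be seen. The gene overlaps DDX43 on the opposite strand by 4055 bases. IFI16 (plus strand of chr1:158999968-159055155) had 4 reads in NC, 8 in GAS5 and 4 in siYAP, a ratio of GAS5 to NC of 2.16 (0.580 to 9.82). Of its 11 listed transcripts, 6 were at 0 in all 3 groups. A difference was not detectable for IFI16 either.

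TMEM173 encodes STING, the adaptor of the DNA arm in the membrane of the endoplasmic reticulum, and was the one DNA-arm member with counts to compare. Scaled counts were 552 in NC, 468 in GAS5 and 614 in siYAP. GAS5 was the lowest group and siYAP the highest, whereas for DDX58 GAS5 was the highest group. The log2 ratio to NC was -0.24 in GAS5 (-0.37 to -0.11) and 0.15 in siYAP (0.03 to 0.28). Both lie inside the middle of all genes, where percentile 5 and percentile 95 were -0.51 and 0.54 for GAS5 and -0.60 and 0.57 for siYAP. TMEM173 lies on the minus strand at chr5:139475534-139482935, and ENST00000330794 held from 90.9% to 93.9% of its counts in the 3 groups.

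Set side by side, the RNA sensors had a median log2 ratio of 1.65 in GAS5 against NC, with 4 of 4 above 0 and 3 past a fold of 2. The DNA sensors had 1 of 3 with enough counts, and it was at -0.24. The difference of these medians was 1.88, and it was 1.00 when MB21D1 and IFI16 were included with their few reads. In siYAP against NC the RNA sensors had a median of -0.12 and TMEM173 was at 0.15. Summed FPKM, a level per length of transcript, of the RNA sensors came to 8.22 (NC), 31.4 (GAS5) and 7.37 (siYAP). The DNA sensors summed to 11.9 (NC), 10.2 (GAS5) and 13.2 FPKM (siYAP), nearly all from TMEM173. With 1 value per group and 1 comparable DNA sensor, this contrast is a description. Which nucleic acid the cells sensed, if any, was not tested.

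MAVS encodes the mitochondrial adaptor that RIG-I and MDA5 share. Scaled counts were 10370 in NC, 8061 in GAS5 and 10554 in siYAP. GAS5 was the lowest of the 3, and its log2 ratio to NC was -0.36 (-0.39 to -0.33), a fold of 0.777. In siYAP the ratio was 0.03 (-0.00 to 0.05). The MAVS value in GAS5 was well outside counting error, yet 9.67% of all genes had a lower one. MAVS lies on the plus strand at chr20:3846799-3876123, and ENST00000428216, with a spliced length of 11714 bases over 7 exons, held from 92.7% to 96.2% of its counts.

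TBK1, the kinase on which both arms converge, had scaled counts of 1080 in NC, 1158 in GAS5 and 993 in siYAP. Its log2 ratio was 0.10 in GAS5 (0.01 to 0.19) and -0.12 in siYAP (-0.21 to -0.03). Its position is chr12:64451880-64502108 on the plus strand, and ENST00000331710 held 99.0% of the NC counts, 93.3% in GAS5 and 99.3% in siYAP. On the opposite strand TBK1 overlaps the antisense gene AC135279.3 by 1022 bases.

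IRF3, the factor that TBK1 phosphorylates, had scaled counts of 1851 in NC, 1866 in GAS5 and 2036 in siYAP. Its log2 ratio was 0.01 in GAS5 (-0.06 to 0.08) and 0.14 in siYAP (0.07 to 0.20). The gene sum was level in GAS5, but its 24 listed transcripts were not. ENST00000377139 had scaled counts of 843 in NC, 591 in GAS5 and 978 in siYAP, and ENST00000309877 had 204, 97.2 and 152. In the other direction, ENST00000601291 had 216 in NC, 411 in GAS5 and 213 in siYAP. ENST00000599144 was higher in both treatments, at 215 in NC, 326 in GAS5 and 341 in siYAP. These forms share most exons, and how the counting divided reads among them was not tested. IRF3 lies on the minus strand at chr19:49659569-49665875 and overlaps BCL2L12 on the opposite strand by 734 bases. For MB21D1, TBK1 and IRF3, strand-specific libraries can separate the partners if the counting used strand, which is not given in the sources used here.

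Per length, the order of the members in NC ran from IRF3 (45.0 FPKM) and MAVS (31.9) through TBK1 (12.0) and TMEM173 (11.9) to DDX58 (4.28), IFIH1 (2.65), TLR3 (0.870) and DHX58 (0.430), with IFI16 at 0.0400 and CGAS at 0.0200. TBK1 and TMEM173 had overlapping counting intervals (11.5 to 12.5 and 11.2 to 12.6), as did IFI16 and CGAS, and the other neighbours did not overlap. In GAS5, DDX58 took the third place (17.6 FPKM), above TBK1 (12.8), and IFIH1 the fifth (10.9), beside TMEM173 (10.1). IFIH1 and TMEM173 overlapped there within counting error. In siYAP the order was that of NC except that TMEM173 (13.2) stood above TBK1 (10.6). Per length, then, all 4 RNA sensors lay below STING, MAVS, TBK1 and IRF3 transcripts in NC, and in GAS5 DDX58 and IFIH1 lay among them.

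**Figure D3:**
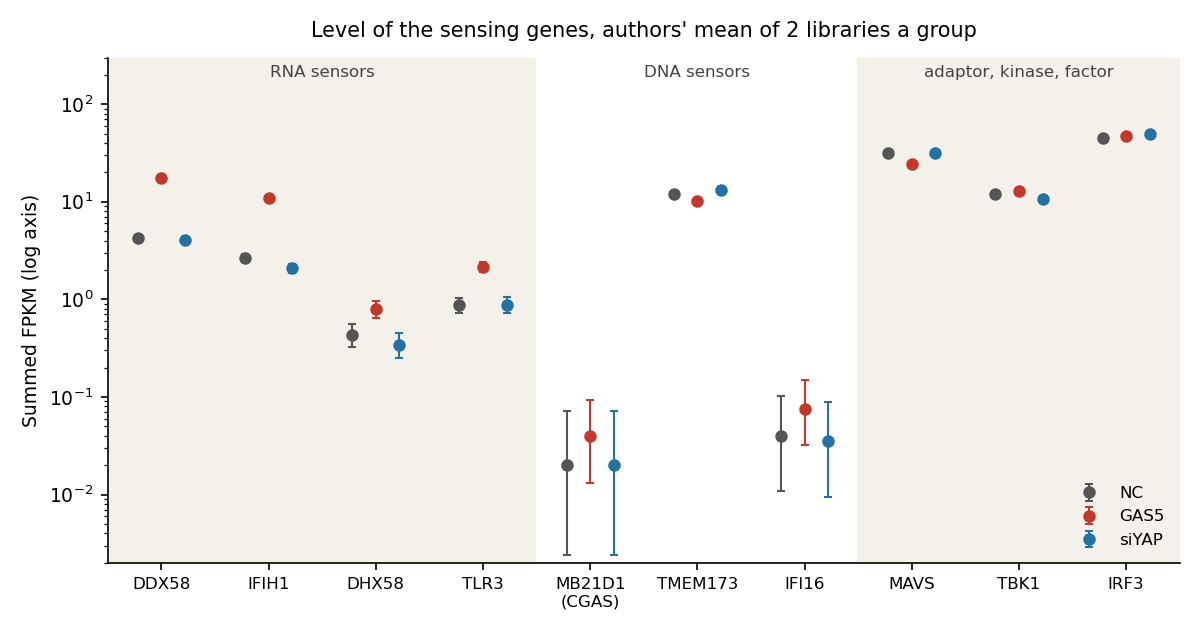
Summed FPKM (y axis, log scale) of the 10 members (x axis) in NC (grey), GAS5 (red) and siYAP (blue), each point the authors' mean of 2 libraries with a 95% counting interval. DDX58 and IFIH1 rise from 4.28 and 2.65 in NC to 17.6 and 10.9 in GAS5, and MB21D1 and IFI16 stay below 0.1 in all 3 groups.

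The genes whose pair of log2 ratios to NC lay nearest those of DDX58 and IFIH1 were sought among 11946 genes with a mean scaled count of at least 50 over the 3 groups. The distance is Euclidean over these 2 ratios, so it describes 3 values per gene. For DDX58 the nearest were PARP9 (distance 0.05), DDX60 (0.12), IFIH1 (0.22), BST2 (0.22) and SAMD9 (0.24). For IFIH1 they were SAMD9 (0.08), DDX60 (0.11), OAS3 (0.17), PARP9 (0.17) and DDX58 (0.22). PARP9 had scaled counts of 570 in NC, 2363 in GAS5 and 547 in siYAP, and SAMD9 had 783, 3521 and 667.

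Around the RNA sensors, 29 further genes of the arm were listed by name (ubiquitin ligases, adaptors, TRAF proteins, regulators and other Toll-like receptors of nucleic acid), and 27 had enough counts. In GAS5 against NC, 1 was at least 2-fold higher and 0 lower, with a median log2 ratio of 0.09. These counts are near the shares over all genes, 1.83% higher and 0.8% lower. The gene called higher was DDX60, a helicase known as a co-factor of RIG-I. It had scaled counts of 296.5 in NC, 1216 in GAS5 and 271 in siYAP (log2 ratio in GAS5 2.03). TRIM25, the ubiquitin ligase of RIG-I, had 6594.5 in NC, 9414 in GAS5 and 9020 in siYAP, log2 ratios of 0.51 and 0.45. TICAM1, the adaptor of TLR3, had 909 in NC, 1113 in GAS5 and 1171 in siYAP. IKBKE, the kinase related to TBK1, had 142 in NC, 181 in GAS5 and 198 in siYAP, log2 ratios of 0.35 and 0.48. None of the 27 was past a fold of 2 in siYAP against NC, beside 1.03% of all genes higher and 1.06% lower. Between GAS5 and siYAP, DDX60 was higher and TLR9 lower, beside 2.2% of all genes higher and 1.9% lower. TLR9 had scaled counts of 9.87 in GAS5 and 27.0 in siYAP. It was listed here with the other Toll-like receptors although it is a receptor for DNA, not RNA.

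In the DNA arm, 28 further genes were listed (other DNA sensors, nucleases, DNA repair proteins that bind DNA ends, STING regulators and RNA polymerase III subunits), and 23 had enough counts. For GAS5 against NC 0 were past a fold of 2, with ratios from -0.37 to 0.81 and a median of 0.10. That is near the shares over all genes, 1.83% higher and 0.8% lower. In siYAP against NC 0 were past a fold of 2 too, with ratios from -0.80 to 0.68 and a median of -0.12. Over all genes 1.03% were higher and 1.06% lower. TREX1, the exonuclease that degrades cytosolic DNA, had scaled counts of 155 in NC, 227 in GAS5 and 102 in siYAP. Its ratios to NC were 0.55 in GAS5 and -0.59 in siYAP. It was the 1 gene of the list past a fold of 2 between the treatments, with a log2 ratio of 1.14. Over all genes 2.2% were higher in GAS5 than in siYAP and 1.9% lower. AIM2 and ZBP1, sensors of DNA and of Z-form nucleic acid, were at 0 in all 3 groups, as was PYHIN1.

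Below the sensors, 20 factors and early targets were listed, and 15 had enough counts. Of these, 9 were at least 2-fold higher in GAS5 than in NC and 0 lower, beside 1.83% of all genes higher and 0.8% lower. The median log2 ratio was 1.43 with IFNL1 included, which had the highest ratio of the 15 (4.17). IFNL1 is among the 9, but its scaled counts were 0 in NC, 34.1 in GAS5 and 0 in siYAP. It reached the minimum mean of 10 through GAS5 alone, so its call followed from the filter and adds no evidence. In siYAP against NC 0 of the 15 were past a fold of 2, with a median of 0.18. IFNL1, at 0 in both groups, could not be called there. Over all genes 1.03% were higher and 1.06% lower. IRF7, the interferon-inducible partner of IRF3, had scaled counts of 300 in NC, 1499 in GAS5 and 377 in siYAP. IRF9, a factor of the response to interferon, had 470, 1273 and 564. Both were high in GAS5 only. ISG15, a ubiquitin-like protein, had 1608 in NC, 11925 in GAS5 and 2015 in siYAP. IFIT1 had 216.5, 3301 and 184, IFIT2 had 90.5, 943 and 83.0, and OASL had 137, 1109 and 214. ATF3, a stress-response factor, had 830, 2149 and 784.

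Of the interferon genes in the list, 3 had reads in GAS5 and none in the other groups, and IFNL3 had reads in all 3 groups. IFNB1, the classical target of IRF3, had 5 reads in GAS5 and 0 in NC and siYAP. Its counting interval for GAS5 against NC began at a fold of 0.992, so these few reads do not place it above NC. IFNL1, a type III interferon of epithelia, had 63 reads in GAS5 and 0 in the other groups. With NC set to a floor of 3 reads over the group, IFNL1 was 22.7-fold higher in GAS5. Its counting interval against NC began at a fold of 17.9. IFNL2 had 25 reads in GAS5 and 0 elsewhere. IFNL3 had 110 reads in NC, 137 in GAS5 and 117 in siYAP, a log2 ratio to NC of 0.42 in GAS5 and 0.18 in siYAP. IFNL2 and IFNL3 are near-identical copies whose reads the counting could have divided either way, so their separate values are uncertain.

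**Figure D4:**
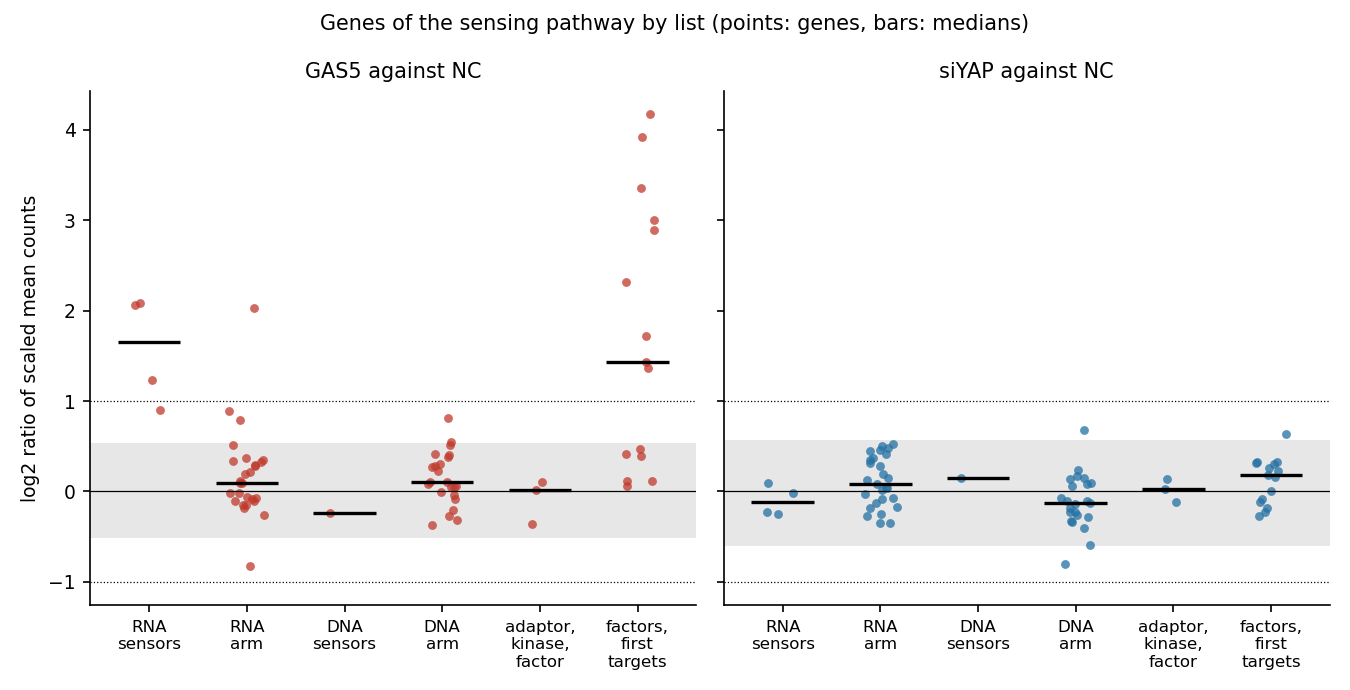
Log2 ratio of scaled mean counts (y axis) for each gene with enough counts (points) in 6 lists (x axis), for GAS5 against NC (left) and siYAP against NC (right), with list medians as bars, a fold of 2 as dotted lines and the range from percentile 5 to percentile 95 of all genes in grey. On the left the RNA sensors (median 1.65) and the factors and first targets (median 1.43, with IFNL1 included) lie high. On the right no point passes a fold of 2.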

How the data were processed

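RNA-seq tables of HCT116 cells were used, 1 for GAS5 against NC and 1 for siYAP against NC. The deposited expected counts are estimated counts per mRNA transcript, given as the authors' mean of the 2 libraries in each group. The deposited FPKM values were averaged in the same way, with 0 written as 0.001. TopHat2 2.1.1 is named in the submitters' processing notes. The counting tool and genome build are not given in the sources used here. The tables also hold the authors' fold changes, p-values and FDR, which were not used.

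The tables were joined by transcript (92866), with symbols from the siYAP table. Counts were summed by symbol and scaled by TMM (edgeR 4.0.16, R 4.3.3) over the 3 group means. Log2 ratios used a prior count of 2, genes needed a mean scaled count of at least 10 over the groups, and a call was a fold of at least 2. Counting intervals took the reads as 2 times the mean, since 89.4% of non-zero gene sums doubled to within 0.05 of a whole number. The edgeR quasi-likelihood test laid down for separate libraries could not be run on group means. The rest was done in Python 3.11.15 with scipy 1.17.1 and pandas 2.3.3. The steps were tested on simulated data. FPKM served for levels between genes. Positions come from GENCODE 29 (GRCh38) and promoters from RefSeq (GRCh38.p14).

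The members and lists were chosen with earlier results of these data known. Named were all members, listed genes past a fold of 2 in any comparison with a scaled count of at least 50 in a group compared, 8 listed genes fixed by name, and transcripts with at least 10% of a member's counts. A gene that the rule names is not reported here. IFNL1, IFNL2, IFNL3, PYHIN1 and TLR9 fall outside this rule and were named after their values were seen. Alternatives were DESeq2 1.42.0 size factors, total counts, TMM on transcripts, a prior count of 0.5, other filters, summed FPKM, annotated transcripts only, the most abundant transcript and a fold of 1.5.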

Additional observations from a re-analysis of the deposited data

How the results depend on the processing

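No paired analysis was possible because only group means were at hand, so the fit with a replicate block, the fits without single libraries and the edgeR and DESeq2 tests were not run. Over 10 alternatives, the number of members at least 2-fold higher in GAS5 than in NC was 3 or 4, and DDX58, IFIH1 and TLR3 were called in each. DHX58 joined with Ensembl transcripts only, with the most abundant transcript only and at a fold of 1.5. The transcript settings leave out the assembled transcript that held all of its NC counts. Its NC value was 0 there, so these calls followed from the setting and add no evidence. Against siYAP the number was 3 or 4, without DHX58 at a minimum of 50 in the reference group and without TLR3 on the most abundant transcript. In siYAP against NC the count of 0 became 1 (DHX58) with Ensembl transcripts only and 1 with the most abundant transcript only, settings that leave out the assembled transcript holding its NC counts. The difference between the RNA and DNA sensor medians (1.88) was 1.00 with no filter, which adds MB21D1 and IFI16, and 2.30 at a minimum of 50, which drops DHX58. It was 2.67 with Ensembl transcripts only and 2.81 with the most abundant transcript only, both with DHX58 at 0 in NC. Of 237 values of single members under the alternatives, 225 kept their side of 0, and 22 lay outside the counting interval of the main value. The other filters and the fold of 1.5 cannot change the ratio of a single member, so their values kept their side by construction. IRF3 in GAS5 ranged from -0.51 to 0.07 and DHX58 from 0.75 to 4.85, its upper end set against an NC value of 0. No scaling moved the median of all genes by over 0.1. Depth limits MB21D1 and IFI16, and nothing here measures the spread between cultures.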

Other observations

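Some genes outside the naming rule, chosen after their values were seen, were highest in GAS5. CCL5, a chemokine gene that IRF3 and NF-κB factors can induce, had scaled counts of 1.10 in NC, 26.0 in GAS5 and 1.61 in siYAP. Its mean over the groups was under the minimum of 10, so it was not called. The other chemokines listed, CXCL10 and CXCL11, had 6 reads and 1 read in GAS5 and 0 in NC and siYAP. An assembled TBK1 transcript, TCONS_00029663, had a scaled count of 49.4 in GAS5 and 0 in NC and siYAP, although it made up only 4.27% of the gene in GAS5 and its split from the other transcripts was not checked against reads. RNASEH2C, a subunit of the nuclease that removes RNA from RNA-DNA hybrids, had the highest ratio of the DNA arm in GAS5, with scaled counts of 562 in NC, 988 in GAS5 and 510 in siYAP.

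Letters of the interferon-stimulated response element were also counted over the lists. Of the 9 factors and first targets called higher in GAS5, 5 had a RefSeq promoter and 3 of these held GAAA, any 2 bases and GAAA. Of the 11 others, 10 had a promoter and 4 held the letters. In the DNA arm, 3 of 25 genes with a promoter held them, none of the 25 called higher. In the RNA arm, the 1 gene called higher held them and 0 of 23 others did. Among all genes with a promoter, 1195 of 27305 held the letters. With 1 base between, the letters were in 1 of the 5 factors and first targets called higher and in 2 of the 10 others. That spacing was also in the 1 RNA-arm gene called higher, in 3 of the 23 others and in 1 of 25 DNA-arm genes. Over all genes 1056 of 27305 held it.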
